A study of Mus musculus with 27 samples.

Results

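HepOrgs, organoids grown in Matrigel from mouse hepatocytes, were compared after 2 weeks in a minimal medium, MM, with hepatocytes taken straight from the liver. The libraries were chosen by their titles as passage 2 HepOrgs kept in MM for 2 weeks and as isolated wild-type hepatocytes, which gave 3 and 3 of the 27 libraries mapped to a condition. All genes of the count table entered the comparison, and 13405 of 21850 had enough counts to be tested. The study assembles hepatocyte organoids with bile duct cells and portal mesenchyme, and MM is the medium in which those assemblies are grown. The comparison addresses how near organoids in MM came to the cells they were derived from.

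Both groups were from C57BL/6 mice, and the labels give no age. The MM HepOrgs were wild type, were expanded in a growth-factor-rich medium called HM-Wnt, and spent 14 days in MM, a basal medium with 30% Wnt-conditioned medium and a ROCK inhibitor at 10 µM. HM-Wnt HepOrgs of the same passage and day, used for a second comparison, had the same 30% conditioned medium and ROCK inhibitor together with gastrin, EGF, HGF, FGF7, FGF10, nicotinamide, R-spondin 1 medium, a GSK3 inhibitor and the TGF-beta receptor inhibitor A83-01. The fresh hepatocytes came from collagenase perfusion of the liver and had no culture. Library 3 of the fresh group is titled wild type, while its genotype label reads MDR2-het. Mdr2 is another name of Abcb4. Without that library 2294 genes were higher and 2273 lower in MM HepOrgs at the threshold used here. Culture, passage, Matrigel and MM all separate the organoids from the fresh cells, so their parts cannot be told apart in this comparison. The labels do not say whether the 3 libraries of a group came from separate animals or cultures, so each p-value measures the spread between these libraries, which may be technical.

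Hepatocytes make most plasma proteins, clear ammonia through the urea cycle, convert cholesterol to bile acids and detoxify drugs through cytochrome P450 enzymes and conjugation. These tasks are divided along the lobule, with urea synthesis and gluconeogenesis strongest near the portal vein and bile acid synthesis and drug metabolism strongest near the central vein, where Wnt signals act. When hepatocytes leave the liver and attach to a matrix, they are known to lose part of this programme and to take up genes of foetal liver and bile duct epithelium.

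The 6 libraries held between 34082074 and 53113534 counts assigned to genes, and between 14426 and 14971 genes had a count in the MM HepOrgs against 14456 to 14677 in the fresh hepatocytes. Levels are given as CPM, counts scaled to a common library total and by TMM factors, in the order library 1, 2 and 3, and they compare 1 gene between libraries rather than genes with each other. Mitochondrially encoded genes took 2.16%, 2.66% and 3.44% of the counts in MM HepOrgs and 4.11%, 5.03% and 4.62% in fresh hepatocytes. A total of 3315 genes were listed at 0 in all 27 libraries, and among 1046 genes that lie almost wholly inside another gene this share was 76.5%, against 14.9% of 15456 genes that overlap none, so a gene listed at 0 cannot be read as silent. In bulk libraries, fewer cells of a type and less RNA per cell cannot be told apart.

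Marker genes placed both groups in the hepatocyte lineage, and marker genes of other cell types were also detected (plot of summed marker levels). The 10 hepatocyte markers summed to 79602, 117404 and 63486 CPM in fresh hepatocytes and to 65567, 44671 and 28345 CPM in MM HepOrgs. The 14 cholangiocyte markers, genes of bile duct cells, summed to 45.1, 167 and 58.4 CPM in fresh hepatocytes and to 11310.1, 10415 and 7441 CPM in MM HepOrgs, almost all of the latter from Spp1. Endothelial markers summed to 81.6, 366 and 324 CPM in fresh hepatocytes and to 6.84, 9.05 and 17.1 CPM in MM HepOrgs, where Clec4g, Egfl7, Wnt2 and Ptprb were at 0. Library 2 of the fresh group held the highest endothelial, macrophage and red cell sums of its group.

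**Figure D1:**
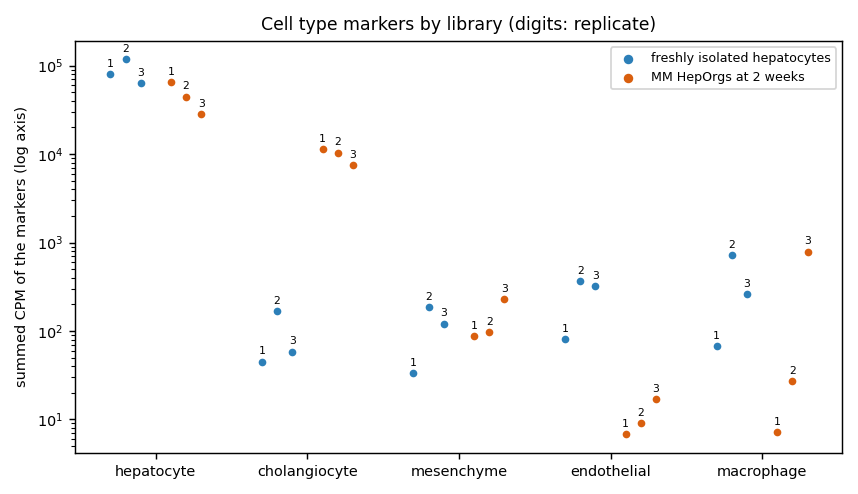
Summed TMM-scaled CPM of the hepatocyte, cholangiocyte, mesenchyme, endothelial and macrophage markers (log axis) in each library of fresh hepatocytes and MM HepOrgs. The replicate number stands beside each point. The hepatocyte sums of the groups overlap, the cholangiocyte sums lie at 45.1 to 167 in fresh hepatocytes and 7441 to 11310.1 in MM HepOrgs, and macrophage sums reach 789 only in MM library 3.

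Library 3 of the MM HepOrgs stood apart from the other two. Its macrophage markers summed to 789 CPM, against 7.15 and 27.2 CPM in libraries 1 and 2 and 67.0, 725 and 262 CPM in fresh hepatocytes. Lyz2, a lysozyme of macrophages and granulocytes, was at 0.0240, 9.70 and 615 CPM in the 3 MM libraries, while Clec4f and Timd4, markers of resident liver macrophages, were at 0 in all of them. Mesenchyme markers summed to 88.4, 97.2 and 229 CPM in MM HepOrgs and 33.2, 185 and 121 CPM in fresh hepatocytes, and the sums of the groups overlapped. Markers of lymphocytes and granulocytes stayed at or below 4.79 CPM in every library of both groups, and none of them passed the filter on low counts. With library 3 of the MM HepOrgs left out, 2258 genes were higher and 2213 lower than in fresh hepatocytes, and with library 2 of the fresh hepatocytes left out the counts were 2801 and 2567. Whether these markers came from other cells was not tested, nor was the part of such cells in the results below.

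At an adjusted p below 0.05, 2641 genes were higher and 2680 lower in MM HepOrgs than in fresh hepatocytes, or 19.7% and 20.0% of the genes tested (39.7% in both directions; plot of mean levels). The 3 libraries of one group did not overlap the 3 of the other for 5078 of these 5321 genes, while 51.8% of all tested genes had no such overlap. More than 2-fold differences made up 1885 of the higher and 1816 of the lower genes, and more than 16-fold differences 571 and 352. The median log2 fold change over all tested genes was −0.01, and the median standard error 0.30. On log2(TPM + 1), where gene length and composition enter the scale, the median of all genes moved to 0.40 and the split became 3816 higher and 899 lower, so the balance of directions depends on the scale. On that scale the medians of 10 of the 52 lists with a median changed from negative to positive, namely those of Wnt targets, cholesterol synthesis, fatty acid oxidation, Y-linked genes, iron handling, immediate early genes, cell cycle, growth factor receptors, interferon response and mesenchyme markers.

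**Figure D2:**
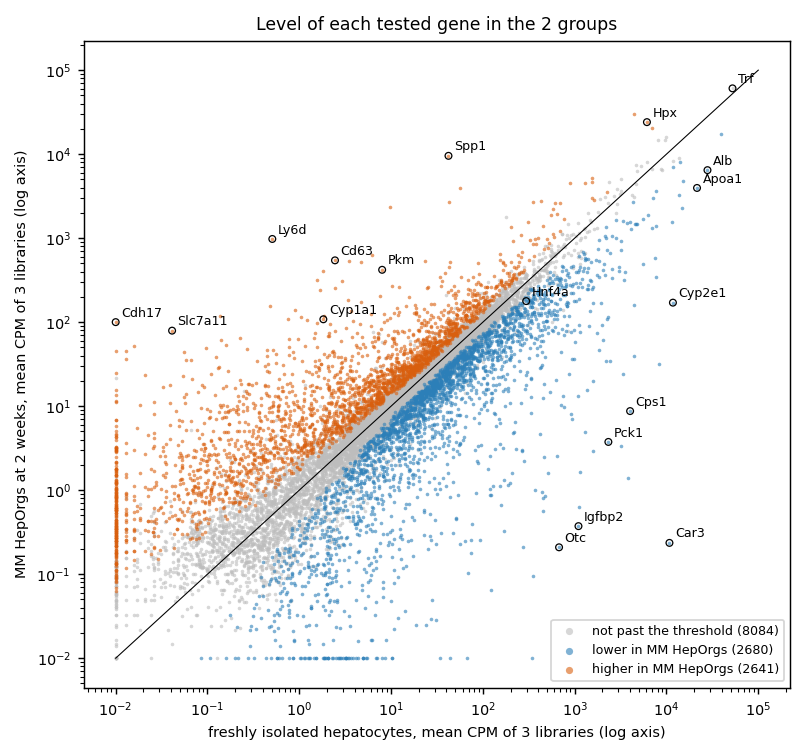
Mean TMM-scaled CPM of each tested gene in fresh hepatocytes (x) and MM HepOrgs (y), both on log axes with 0 drawn at 0.01. Coloured points are the 2641 genes higher and 2680 lower at an adjusted p below 0.05, with Cdh17 and Ly6d far above the diagonal and Otc, Igfbp2 and Car3 far below it.

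Among genes with an average log2 CPM of 5 or more over the 15 libraries and no overlap between the groups, those with the largest increases were nearly absent from fresh hepatocytes. Cdh17, a cadherin of intestinal epithelium, had no count in fresh hepatocytes and stood at 69.5, 117 and 114 CPM in MM HepOrgs. That was at least 1100.0-fold higher against a floor of 3 counts in each fresh library. Ly6d, a GPI-anchored surface protein, was at 0.264, 0.902 and 0.359 CPM in fresh hepatocytes and 883, 1073 and 978 CPM in MM HepOrgs, a log2 fold change of 10.97 (SE 0.48, edgeR adjusted p = 6.21e-08). Without library 2 of the fresh group its log2 fold change was 11.63. Every MM library exceeded every fresh library for both genes, which the choice of genes without overlap required. Sprr1a, a cornified envelope protein, had 1 count in fresh hepatocytes and a ratio of 4690.0 (counting interval 841 to 185000.0). Stc1, the secreted hormone stanniocalcin 1, likewise had 1 count in fresh hepatocytes and a ratio of 328 (counting interval 58.8 to 12900.0). It was low in MM HepOrgs too, at 2.04, 4.03 and 3.44 CPM, and reached 66.8, 56.2 and 82.3 CPM in HM-Wnt HepOrgs.

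The other genes of the same rank were Slc7a11, the cystine importer, at 10.61 (SE 1.16, edgeR adjusted p = 1.44e-05), Cpe, a peptide-processing carboxypeptidase, at 9.80, Psrc1, a spindle protein, at 9.18 and Plat, tissue plasminogen activator, at 8.87. They were followed by Phlda3, a p53 target, at 8.47, Bmp8b, a growth factor of the BMP family, at 8.22, A2m, a protease inhibitor, at 8.18 and Plod2, which hydroxylates collagen lysines, at 8.02 on the log2 scale. The size of several of these changes varied with the libraries included. Without library 2 of the fresh hepatocytes, the log2 fold change of Psrc1 was 9.77, that of Phlda3 9.39 and that of Plod2 9.74. Plod2 was at 7.34 without library 1 of the fresh hepatocytes, and without library 3 of that group Bmp8b was at 8.97 and A2m at 8.98. Without library 3 of the MM HepOrgs, Slc7a11 was at 9.40 and Plat at 8.09, without library 1 of that group A2m was at 7.54, and without library 1 of the fresh hepatocytes Slc7a11 was at 12.06.

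The steepest decreases were in enzymes and secreted factors of mature hepatocytes. Car3, carbonic anhydrase 3, fell from 11583, 7961 and 12779 CPM to 0.216, 0.417 and 0.0742 CPM, a log2 fold change of −15.43 (SE 0.70, edgeR adjusted p = 1.01e-07). Igfbp2, a binding protein for insulin-like growth factors, fell from 949.7, 1483 and 867 CPM to 0.0240, 0.229 and 0.866 CPM, at −11.53 (SE 1.30, edgeR adjusted p = 1.91e-05). The 3 MM libraries lay under the lowest fresh library for both, which the choice of genes without overlap required. Cyp26a1, which breaks down retinoic acid, was at 69.9, 894 and 53.6 CPM in fresh hepatocytes, highest in library 2, and had no count in MM HepOrgs, at least 4880.0-fold lower. The remaining genes of this rank were the serine dehydratase Sds at −11.84, the urea cycle enzyme Otc at −11.64, the P450 enzyme Cyp2f2 at −11.41, the sulfotransferase Sult2a8 at −10.78, the glucuronosyltransferase Ugt2a3 at −10.34, the carboxylesterases Ces3a at −9.90 and Ces3b at −9.63, the organic anion transporter Slco1a1 at −9.43 and Pck1 of gluconeogenesis at −9.27. The Ces3, Sult2a and Ugt2 genes have near-identical copies, so the share of reads given to each is uncertain. Leaving out 1 MM library deepened several of these values, to −13.75 for Sds and −12.83 for Otc without library 1, −16.14 for Car3 and −10.52 for Ces3a without library 2, and −12.97 for Igfbp2 without library 3.

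The most abundant transcripts were those of secreted proteins in both groups. Trf, which encodes the iron carrier transferrin, led both, with 4.27%, 3.67% and 4.45% of the counts in fresh hepatocytes and 5.46%, 6.35% and 6.81% in MM HepOrgs. Next in fresh hepatocytes came Apoe, Alb, Apoa1, Mup3, Apoa2, mt-Co1, mt-Nd1, mt-Cytb and Gc, and next in MM HepOrgs came Hp, Hpx, Scd1, Apoe, Fgb, Fgg, Fga, Spp1 and mt-Nd1. Hp, haptoglobin, took 3.66%, 3.29% and 2.08% of the MM counts. The 10 leading genes together held 17.9%, 17.4% and 17.6% of the fresh counts and 22.8%, 23.5% and 19.4% of the MM counts.

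**Figure D3:**
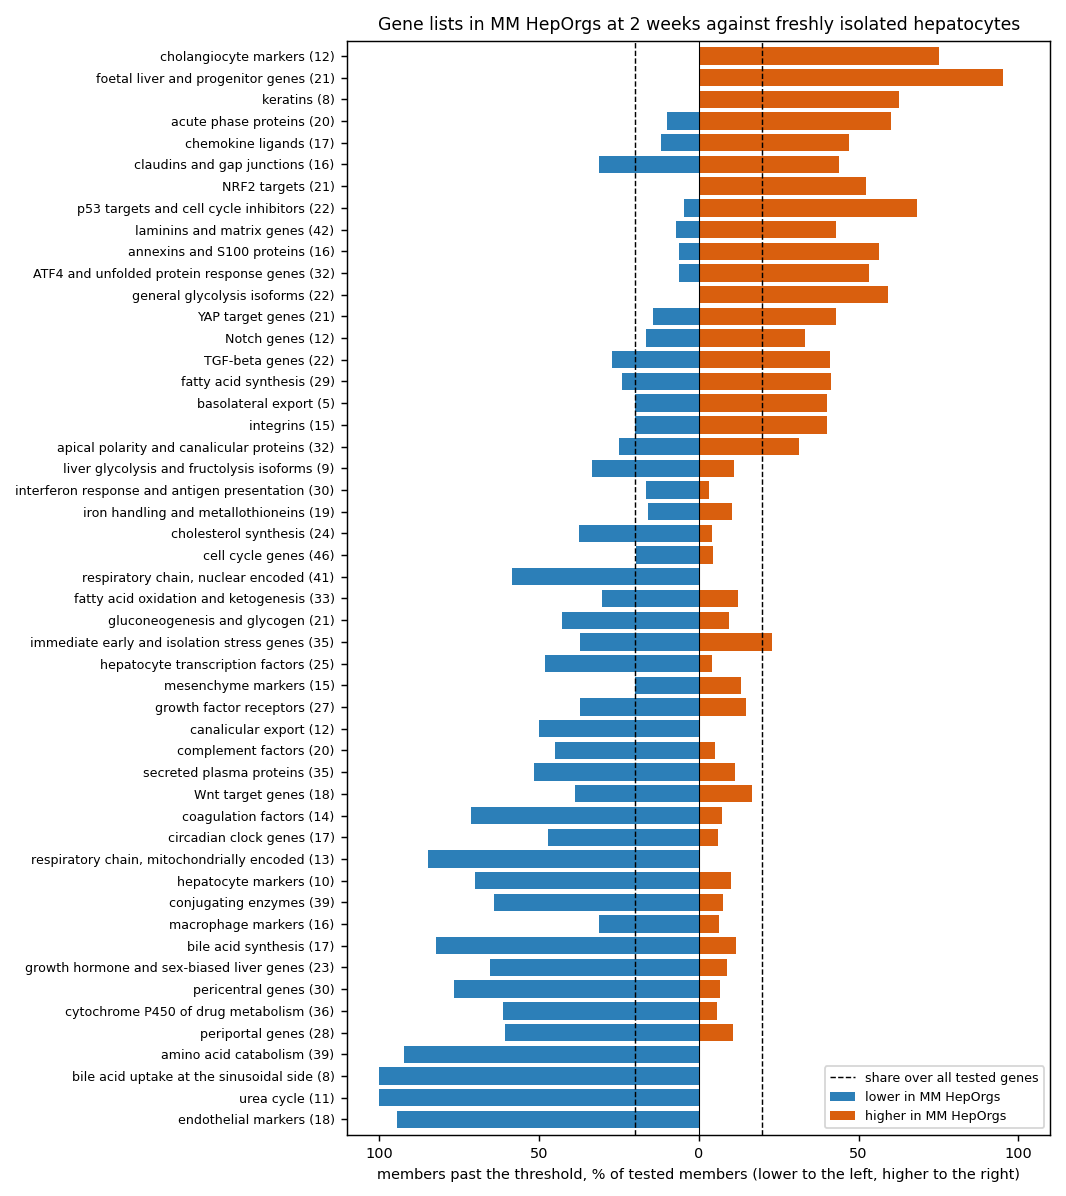
Percent of the tested members of each gene list that were lower (left) or higher (right) in MM HepOrgs than in fresh hepatocytes at an adjusted p below 0.05, with dashed lines at the share of all tested genes, 20.0% lower and 19.7% higher. All 11 urea cycle members tested were lower, and 20 of 21 foetal liver and progenitor genes were higher. The lists were chosen with earlier results of these data known.

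Liver-enriched transcription factors either fell or did not pass the threshold, with 1 exception (plot of list shares). Of 25 tested, 1 was higher, 12 were lower and 12 did not pass the threshold, with a median log2 fold change of −0.73, and without library 3 of the MM HepOrgs the number lower was 7. Cebpa, a factor that drives metabolic genes in quiescent hepatocytes, was at 192, 145 and 168 CPM in fresh hepatocytes and 31.8, 41.0 and 26.8 CPM in MM HepOrgs, a log2 fold change of −2.34 (SE 0.19, edgeR adjusted p = 1.46e-06). Nr0b2, the bile acid-induced repressor SHP, differed by −2.92 (SE 0.43, edgeR adjusted p = 0.000172). Hnf4a, a central regulator of hepatocyte identity, was at 347, 307 and 235 CPM in fresh hepatocytes and 200.1, 192 and 143 CPM in MM HepOrgs. The MM libraries were the lower ones without overlap for Cebpa and Hnf4a. The log2 fold change of Hnf4a was −0.73 (SE 0.22, edgeR adjusted p = 0.016), and it lost the call without library 3 of the MM HepOrgs (−0.58, adjusted p = 0.0884) or library 1 of the fresh hepatocytes (−0.58, adjusted p = 0.0827). Ahr, the receptor of dioxins and tryptophan metabolites, was the member that rose, from 12.1, 28.8 and 24.8 CPM to 90.1, 106 and 94.9 CPM, at 2.15 (SE 0.27, edgeR adjusted p = 4.48e-05).

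Among plasma protein genes more fell than rose. Of 35 tested genes for secreted plasma proteins, 4 were higher, 18 were lower and 13 did not pass the threshold, with a median log2 fold change of −0.90. Alb, serum albumin, was at 30659, 37850.0 and 15391 CPM in fresh hepatocytes and 7766, 3592 and 7987 CPM in MM HepOrgs, a log2 fold change of −2.12 (SE 0.40, edgeR adjusted p = 0.0011). Apoa1, the main protein of high-density lipoprotein, fell from 19662, 22297 and 22598 CPM to 5217, 4706 and 1954 CPM, at −2.44 (SE 0.60, edgeR adjusted p = 0.00598). All MM libraries lay below all fresh libraries for both. Ttr, the thyroxine and retinol carrier transthyretin, differed by −2.87, Apoa5, a regulator of plasma triglycerides, by −3.47 and Plg, plasminogen, by −2.15. The haem scavenger Hpx was at 5114, 8514 and 4748 CPM in fresh hepatocytes and 34796, 26006 and 11339 CPM in MM HepOrgs, with the lowest MM library above the highest fresh one. Its log2 fold change was 1.97 (SE 0.56, edgeR adjusted p = 0.0133), and without library 1 of the MM HepOrgs it was 1.61 with an adjusted p of 0.0515. 

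Of 14 coagulation factors, 1 was higher, 10 were lower and 3 did not pass the threshold, with a median of −1.04. Factor XI, F11, fell by 5.46 on the log2 scale, and the anticoagulant protein C gene Proc by 2.23. Serpina10, an inhibitor of factor Xa, rose by 1.29. Of 20 complement genes, 1 was higher, 9 were lower and 10 did not pass the threshold, with a median of −0.82. The terminal components C8a, at −3.26, and C9, at −2.50, were among those that fell.

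Acute phase genes, which the liver induces under interleukin 6 and interleukin 1, stood against this trend. Of 20 tested, 12 were higher, 2 were lower and 6 did not pass the threshold, with a median log2 fold change of 2.34, and 1 was lower when any library except fresh library 2 was left out. Lcn2, the siderophore-binding lipocalin, was at 4.38, 21.1 and 3.45 CPM in fresh hepatocytes and 3021, 2241 and 1845 CPM in MM HepOrgs, a log2 fold change of 7.95 (SE 0.77, edgeR adjusted p = 5.31e-06). Library 2 was the highest of the fresh libraries, and without it the log2 fold change of Lcn2 was 9.26. Hp rose by 2.75 (SE 0.47, edgeR adjusted p = 0.000503) and the ferroxidase ceruloplasmin, Cp, by 1.62. Orm2, an orosomucoid whose copies share sequence, rose by 5.96, and by 8.65 without library 2 of the fresh hepatocytes. Crp, C-reactive protein, was among the members that did not rise, with a log2 fold change of −0.88 (SE 0.29, edgeR adjusted p = 0.0276). The call for Crp was lost without MM library 3 (−0.65), fresh library 1 (−0.80) or fresh library 3 (−0.87), with adjusted p-values of 0.133, 0.0849 and 0.065 in edgeR. Hamp, the iron hormone hepcidin, was at 1362, 172 and 974 CPM in fresh hepatocytes and 7.80, 84.3 and 144 CPM in MM HepOrgs and did not pass the threshold (−3.41 (SE 1.32, edgeR adjusted p = 0.0557)), though it did without library 2 of the fresh hepatocytes (−3.87, adjusted p = 0.0378).

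C/EBP factors bind acute phase promoters, and a C/EBP-type motif, TTGCNNAA on either strand, was looked for in the 250 bases before each gene start (RefSeq, build GRCm38.p6). It was present at 10 of 17 acute phase genes with a promoter entry, 58.8%, against 10.8% of 27025 genes. Of these 10 genes, 7 were higher and 3 did not pass the threshold. The windows of Orm2 and Orm3 are near copies, as are those of Saa1 and Saa2, so these matches are not independent. The same letters were present at 35.5% of plasma protein genes, 28.1% of P450 genes and 27.3% of bile acid synthesis genes, lists in which more members fell than rose. The windows around it are shown for Lcn2, Orm2 and Saa1, 5′ to 3′ on the strand of the gene with the motif in capitals, as examples of those that rose. A match is a description of the letters, and no binding was measured.
Lcn2 (chr2:32387922-32387981, minus strand): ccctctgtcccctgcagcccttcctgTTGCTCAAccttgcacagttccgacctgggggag
Orm2 (chr4:63362303-63362362, plus strand): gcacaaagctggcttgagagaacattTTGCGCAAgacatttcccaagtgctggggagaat
Saa1 (chr7:46743129-46743188, minus strand): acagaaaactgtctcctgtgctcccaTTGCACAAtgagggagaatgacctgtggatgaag

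Saa1, a serum amyloid A gene with close copies beside it, was at 122, 815 and 112 CPM in fresh hepatocytes and 4468, 2586 and 1088 CPM in MM HepOrgs, with a log2 fold change of 2.96 (SE 0.97, edgeR adjusted p = 0.0267). Its call was lost without library 1 of the MM HepOrgs (2.40, adjusted p = 0.0829), library 1 of the fresh hepatocytes (2.57, adjusted p = 0.0873) or library 3 of the fresh hepatocytes (2.56, adjusted p = 0.0872), and without library 2 of the fresh hepatocytes the log2 fold change was 4.55. The neighbouring Alb and Afp genes, for albumin and foetal alpha-fetoprotein, both hold an HNF1-type motif, GTTAATNAT, which was found at 5 of 31 plasma protein genes, 16.1%, and at 0.866% of all 27025 genes. The other 3 of the 5 did not pass the threshold. They are shown together because Alb fell and Afp rose.
Alb (chr5:90460812-90460869, plus strand): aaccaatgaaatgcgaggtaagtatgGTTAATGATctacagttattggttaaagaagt
Afp (chr5:90490583-90490643, plus strand): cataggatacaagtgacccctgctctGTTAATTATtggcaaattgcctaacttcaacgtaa

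Most drug-metabolizing P450 enzymes fell. Of 36 tested, 2 were higher, 22 were lower and 12 did not pass the threshold, with a median log2 fold change of −2.41. Cyp2e1, which oxidizes ethanol and paracetamol, was at 13933, 8122 and 13218 CPM in fresh hepatocytes and 373, 42.6 and 96.7 CPM in MM HepOrgs, a log2 fold change of −6.11 (SE 0.96, edgeR adjusted p = 0.000285), or −7.39 without library 1 of the MM HepOrgs. Cyp1a2, which clears caffeine, was at 1651, 1894 and 2519 CPM and 101, 61.5 and 19.2 CPM in fresh hepatocytes and MM HepOrgs, at −5.06 (SE 0.96, edgeR adjusted p = 0.0011). Cyp3a11, the major mouse CYP3A enzyme, was at 2051, 5248 and 1752 CPM and 486, 352 and 393 CPM, at −2.88 (SE 0.67, edgeR adjusted p = 0.00429), and at −2.19 without library 2 of the fresh hepatocytes. The groups did not overlap for any of these 3 enzymes. Por, the reductase that hands electrons to all of these enzymes, differed by −1.76 (SE 0.42, edgeR adjusted p = 0.00484), or by −1.06 without library 1 of the fresh hepatocytes. Cyp1a1, the classic target of the Ahr receptor, went the other way, from 2.18, 1.37 and 1.93 CPM to 130.1, 146 and 48.1 CPM, at 5.87 (SE 0.82, edgeR adjusted p = 0.000112). The other member that rose was Cyp2a4, at 6.59 and 8.04 without library 1 of the fresh hepatocytes. Members of the Cyp2a, Cyp2c, Cyp2d and Cyp3a families share long stretches of sequence, so reads may be split among them.

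HNF4A binds many P450 promoters, and an HNF4-type motif, CAAAGTCCA, lay within 250 bases before the start of 8 of 32 P450 genes, 25.0%, and of 0.451% of 27025 genes. Of these 8 genes, 4 were lower, 3 did not pass the threshold and 1 was not tested. All 8 belong to the Cyp2c and Cyp3a families. The windows of Cyp2c40 and Cyp2c69 are identical, and those of Cyp3a16 and Cyp3a41a nearly so. The matches are therefore not independent, and the 25.0% counts copies separately. The motif is shown in capitals for 3 P450 genes that fell, Cyp3a11, Cyp2c67 (−4.75 (SE 0.73, edgeR adjusted p = 0.000244)) and Cyp2c70 (−3.52 (SE 0.51, edgeR adjusted p = 0.000141)) (RefSeq, GRCm38.p6).
Cyp3a11 (chr5:145879929-145879989, minus strand): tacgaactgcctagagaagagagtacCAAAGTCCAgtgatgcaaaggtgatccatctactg
Cyp2c67 (chr19:39649133-39649193, minus strand): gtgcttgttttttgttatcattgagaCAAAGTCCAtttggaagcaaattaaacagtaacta
Cyp2c70 (chr19:40187316-40187376, minus strand): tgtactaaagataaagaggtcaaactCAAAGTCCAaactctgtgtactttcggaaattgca

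Conjugating enzymes, which make drugs and bilirubin water-soluble, followed the P450 enzymes. Of 39 tested, 3 were higher, 25 were lower and 11 did not pass the threshold, with a median of −1.40. Sult2a8, a bile acid sulfotransferase, was at 999.8, 1045 and 1312 CPM in fresh hepatocytes and 1.03, 0.313 and 0.569 CPM in MM HepOrgs. Mgst1, a microsomal glutathione transferase, differed by −1.70 (SE 0.32, edgeR adjusted p = 0.00109) and Tpmt, which methylates thiopurines, by −1.89. Members of the Ugt1a family were listed at 0 in every library and gave no value.

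Most genes of bile acid synthesis and all tested genes of uptake fell, and 6 of 12 genes of canalicular export did. Of 17 genes of bile acid synthesis, 2 were higher, 14 were lower and 1 did not pass the threshold, with a median log2 fold change of −2.31. Cyp7a1, the rate-limiting enzyme, was at 113, 25.7 and 269 CPM in fresh hepatocytes and 3.46, 1.77 and 3.94 CPM in MM HepOrgs, a log2 fold change of −5.48 (SE 0.97, edgeR adjusted p = 0.000691), and −4.48 without library 3 of the fresh hepatocytes. Cyp8b1, which directs synthesis to cholic acid, was at 119.6, 616 and 537 CPM and 7.03, 2.63 and 4.28 CPM, at −6.51 (SE 0.77, edgeR adjusted p = 2.79e-05). Cyp7b1 of the acidic route differed by −4.70 (SE 0.78, edgeR adjusted p = 0.000421), and by −4.10 without library 3 of the fresh hepatocytes. The fresh libraries spread by several fold for Cyp7a1 and Cyp8b1, yet their lowest stayed above the highest MM library. The 2 members that rose were Cyp39a1, an oxysterol hydroxylase, at 2.77 (3.72 without library 2 of the fresh hepatocytes), and Ch25h, cholesterol 25-hydroxylase, which had no count in fresh hepatocytes and was at least 35.0-fold higher.

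All 8 tested genes of sinusoidal uptake fell, with a median of −4.16. Slc10a1, the sodium-dependent bile acid importer NTCP, was at 792, 933 and 857 CPM in fresh hepatocytes and 147, 132 and 74.7 CPM in MM HepOrgs, at −2.87 (SE 0.66, edgeR adjusted p = 0.00401). Slco1a1 was at 1448, 426 and 1554 CPM and 2.16, 1.79 and 1.01 CPM. Of 12 genes of canalicular export, none was higher, 6 were lower and 6 did not pass the threshold, with a median of −0.80, and 1 was higher without library 1 of the fresh hepatocytes. Abcb11, the bile salt export pump, was at 296, 696 and 327 CPM in fresh hepatocytes and 86.5, 82.0 and 42.0 CPM in MM HepOrgs, at −2.65 (SE 0.71, edgeR adjusted p = 0.00931). Abcc2, which exports conjugated bilirubin, was at 365, 353 and 297 CPM and 168, 147 and 217 CPM, at −0.93 (SE 0.18, edgeR adjusted p = 0.00118). No MM library reached the fresh range for these transporters. Abcb4, the phospholipid exporter, was at 264, 215 and 116 CPM and 333, 256 and 266 CPM, the groups overlapped, and its value did not pass the threshold (0.52 (SE 0.27, edgeR adjusted p = 0.137)). The lowest level, 116 CPM, was that of fresh library 3, whose genotype label names this gene, and without that library the log2 fold change was 0.27 (adjusted p = 0.391). Without fresh library 1 it was 0.82 (adjusted p = 0.0414) and passed the threshold. Part of Abcb4 overlaps Crot in the annotation. On the basolateral side, 2 of 5 genes tested were higher, 1 was lower and 2 did not pass the threshold, with a median of 0.65, and the 2 that rose were Abcc4, at 4.19, and Abcc1, at 3.77, pumps that export organic anions back to blood. Without library 2 of the fresh hepatocytes they were at 5.59 and 4.88, and Abcc4 was at 3.21 without library 3 of the MM HepOrgs.

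The urea cycle fell as a whole. All 11 tested members were lower, with a median log2 fold change of −4.35 (plot of per-library levels). Cps1, which fixes ammonia in the first step, was at 3792, 4808 and 3448 CPM in fresh hepatocytes and 10.0, 13.2 and 2.97 CPM in MM HepOrgs, a log2 fold change of −8.84 (SE 0.93, edgeR adjusted p = 1.11e-05). Otc, the second enzyme, was at 622, 824 and 581 CPM and 0.456, 0.146 and 0.0248 CPM, at −11.64 (SE 1.31, edgeR adjusted p = 4.53e-05), and −12.83 without library 1 of the MM HepOrgs. Ass1, which joins citrulline and aspartate, was at 3879, 6133 and 3254 CPM and 182, 199 and 97.5 CPM, at −4.79 (SE 0.44, edgeR adjusted p = 3.61e-06). Every MM library lay far under the lowest fresh library for these 3 enzymes. Asl, the enzyme after Ass1, fell less, from 619, 761 and 526 CPM to 120.5, 129 and 73.2 CPM, at −2.56 (SE 0.31, edgeR adjusted p = 3.34e-05). Arg1, which releases urea, was at 2547, 2341 and 1877 CPM and 178, 134 and 18.8 CPM, and MM library 3 lay far under the other two. Its log2 fold change was −4.35 (SE 1.34, edgeR adjusted p = 0.0197), which became −4.51 (adjusted p = 0.0551) without library 2 and −3.83 (adjusted p = 0.0635) without library 3 of the MM HepOrgs, both without the call. Gls2, the liver glutaminase that feeds the cycle, was at 114, 267 and 86.5 CPM and 0.696, 0.834 and 0.495 CPM, at −7.84 (SE 0.56, edgeR adjusted p = 5.20e-07), and −7.19 without library 2 of the fresh hepatocytes. Nags, which makes the activator of Cps1, differed by −1.45.

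**Figure D4:**
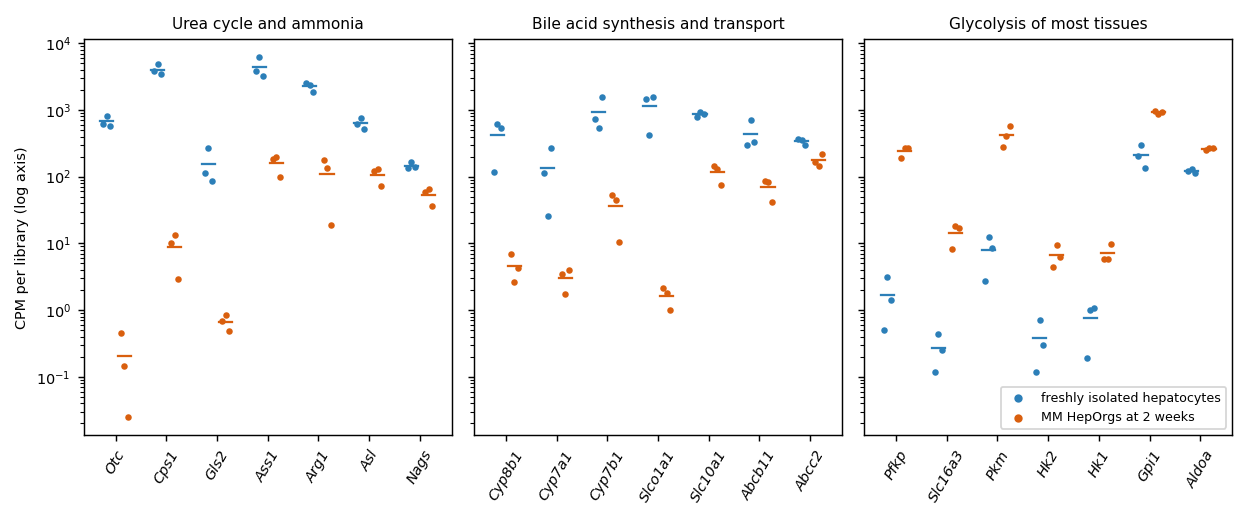
TMM-scaled CPM (log axis) of urea cycle, bile acid and glycolysis genes in each of the 3 fresh hepatocyte and 3 MM HepOrg libraries, with bars at the group means. The urea cycle and bile acid genes lie lower in every MM library, from a wide gap for Otc to a narrow one for Abcc2, and the glycolysis genes, led by Pfkp, lie higher.

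Amino acid breakdown fell with the urea cycle. Of 39 genes tested, none was higher, 36 were lower and 3 did not pass the threshold, with a median log2 fold change of −3.18. Agxt, which detoxifies glyoxylate, was at 566, 653 and 729.6 CPM in fresh hepatocytes and 2.81, 3.84 and 0.916 CPM in MM HepOrgs, at −8.00 (SE 0.67, edgeR adjusted p = 1.76e-06). Tdo2, the first enzyme of tryptophan breakdown, was at 2116, 1636 and 1491 CPM and 112, 88.6 and 24.0 CPM, at −4.54 (SE 0.79, edgeR adjusted p = 0.000577). Cbs of homocysteine removal differed by −3.18 (SE 0.31, edgeR adjusted p = 5.70e-06) and Fah, the last enzyme of tyrosine breakdown, by −2.56 (SE 0.45, edgeR adjusted p = 0.000609). The groups did not overlap for Agxt and Tdo2. The members that did not pass the threshold were Mat1a and Mat2a, which make S-adenosylmethionine, and Csad, which makes a taurine precursor.

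In sugar metabolism, gluconeogenic Pck1 fell, most liver forms of glycolysis enzymes did not pass the threshold and 13 of 22 forms used by other tissues rose. Pck1 was at 3217, 2290.4 and 1479 CPM in fresh hepatocytes and 3.22, 5.57 and 2.48 CPM in MM HepOrgs, at −9.27 (SE 0.85, edgeR adjusted p = 3.58e-06), whereas its mitochondrial form Pck2 rose from 2.95, 4.39 and 2.24 CPM to 92.0, 68.6 and 97.8 CPM, at 4.76 (SE 0.48, edgeR adjusted p = 8.54e-06). Fbp1, the next gluconeogenic enzyme, was at 1940.4, 1835 and 1539 CPM and 1420.4, 1523 and 1052 CPM and did not pass the threshold (−0.41 (SE 0.26, edgeR adjusted p = 0.234)). Of 21 genes of gluconeogenesis and glycogen, 2 were higher, 9 were lower and 10 did not pass the threshold, with a median of −0.67. Of 9 liver forms of glycolysis and fructose use, 1 was higher, 3 were lower and 5 did not pass the threshold, with a median of 0.09.

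Of 22 general glycolysis genes, 13 were higher, none was lower and 9 did not pass the threshold, with a median of 1.02. Pkm, the pyruvate kinase of muscle and proliferating cells, was at 2.78, 12.6 and 8.56 CPM in fresh hepatocytes and 281, 409 and 569.8 CPM in MM HepOrgs, a log2 fold change of 5.72 (SE 0.51, edgeR adjusted p = 3.05e-06). Pfkp, the platelet phosphofructokinase, rose from 0.503, 3.14 and 1.44 CPM to 188, 271 and 266 CPM, at 7.19 (SE 0.57, edgeR adjusted p = 1.13e-06), and 7.99 without library 2 of the fresh hepatocytes. Every MM library lay far above every fresh one for both. The hexokinase Hk1 rose by 3.27 (SE 0.56, edgeR adjusted p = 0.000505) and Slc16a3, a lactate exporter, by 5.84 (SE 0.95, edgeR adjusted p = 0.000369), and Slc16a3 shares part of its span with Csnk1d. Gapdh was among those that did not pass the threshold (0.80 (SE 0.40, edgeR adjusted p = 0.124), and 1.50 with an adjusted p of 0.00366 without library 2 of the fresh hepatocytes), and 1 member was lower without library 3 of the MM HepOrgs.

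Genes of both lobular zones were reduced. Of 28 periportal genes, 3 were higher, 17 were lower and 8 did not pass the threshold, with a median log2 fold change of −2.96, and of 30 pericentral genes, 2 were higher, 23 were lower and 5 did not pass the threshold, with a median of −2.34. The lists share members with those above, among them Cps1 and Cyp2e1. Glul, the pericentral glutamine synthetase, was at 83.2, 206 and 129 CPM in fresh hepatocytes and 134, 126 and 187 CPM in MM HepOrgs and did not pass the threshold (0.09 (SE 0.37, edgeR adjusted p = 0.867)). Spp1, a periportal and bile duct gene for osteopontin, was at 1.56, 105 and 19.7 CPM and 11184, 10263 and 7192 CPM, at 7.82 (SE 1.24, edgeR adjusted p = 0.00029), and 9.84 without library 2 of the fresh hepatocytes. Of 18 Wnt target genes, 3 were higher, 7 were lower and 8 did not pass the threshold, with a median of −1.03, and 4 were lower without library 1 or without library 2 of the MM HepOrgs. Lgr5, the R-spondin receptor, was at 4.10, 14.2 and 9.89 CPM in fresh hepatocytes and 0.192, 0.0834 and 0.446 CPM in MM HepOrgs, at −5.30 (SE 0.65, edgeR adjusted p = 4.02e-05), and −6.06 without library 3 of the MM HepOrgs. Axin2, a feedback inhibitor of the pathway, was under 1 CPM in all 6 libraries and did not pass the threshold (−1.24 (SE 0.58, edgeR adjusted p = 0.105)). Lef1, a nuclear partner of beta-catenin, rose from 4 counts over the 3 fresh libraries to 0.888, 1.29 and 7.57 CPM, at 6.30 (SE 1.29, edgeR adjusted p = 0.00178), or 7.45 without library 1 of the fresh hepatocytes and 4.76 without library 3 of the MM HepOrgs.

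Among lipid genes, some of storage, uptake and desaturation rose and the liver forms of several others fell. Of 29 genes of fatty acid synthesis and storage, 12 were higher, 7 were lower and 10 did not pass the threshold, with a median log2 fold change of 0.67. Scd1, the main stearoyl desaturase of liver, was at 5212, 10676 and 4754 CPM in fresh hepatocytes and 19660.3, 22069.8 and 20267 CPM in MM HepOrgs, at 1.59 (SE 0.39, edgeR adjusted p = 0.00599). Cd36, a fatty acid importer, rose from 2.28, 20.2 and 8.37 CPM to 315, 296 and 205 CPM, at 4.73 (SE 0.70, edgeR adjusted p = 0.000177), or 5.70 without library 2 of the fresh hepatocytes. Fabp4, the fatty acid binding protein of adipocytes and macrophages, was at 0.407, 2.35 and 1.88 CPM and 113, 286 and 540.5 CPM, at 7.69 (SE 0.95, edgeR adjusted p = 3.96e-05), or 7.07 without library 3 of the MM HepOrgs. The groups did not overlap for these 3 genes, and Fabp4 was highest in the MM library with the most macrophage signal. Fabp1, the liver fatty acid binding protein, fell by 2.49 on the log2 scale, Elovl3, a very-long-chain elongase, by 6.85 (−6.16 without library 3 of the fresh hepatocytes) and Dgat2 of triglyceride synthesis by 1.61. Plin2, which coats lipid droplets, rose by 1.60 and Pparg, an adipogenic nuclear receptor, by 2.29.

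Of 33 genes of fatty acid oxidation and ketogenesis, 4 were higher, 10 were lower and 19 did not pass the threshold, with a median of −0.60, and the number lower was 6 without library 3 of the MM HepOrgs and 4 without library 1 of the fresh hepatocytes. The shares higher and lower in this list were 12.1% and 30.3%, against 19.7% and 20.0% over all tested genes. Acaa2 of mitochondrial beta-oxidation fell by 1.65 on the log2 scale. Of 41 nuclear-encoded respiratory chain genes, none was higher, 24 were lower and 17 did not pass the threshold, with a median of −0.54, and of 13 mitochondrially encoded ones, none was higher, 11 were lower and 2 did not pass the threshold, with a median of −1.27, and 1 of the latter was higher without library 2 of the fresh hepatocytes. Sdha, a subunit of complex II, differed by −1.20 (SE 0.14, edgeR adjusted p = 3.10e-05) and mt-Cytb of complex III by −2.07 (SE 0.39, edgeR adjusted p = 0.00105). Of 24 cholesterol synthesis genes, 1 was higher, 9 were lower and 14 did not pass the threshold, with a median of −0.45, and 5 were lower without library 3 of the MM HepOrgs or without library 2 of the fresh hepatocytes, with 2 higher in the latter case. The cholesterol shares higher and lower were 4.17% and 37.5%, against 19.7% and 20.0% over all tested genes. Sqle, squalene epoxidase, was the member that rose (1.35 (SE 0.35, edgeR adjusted p = 0.0086)).

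Most growth hormone targets fell. Of 23 growth hormone and sex-biased genes tested, 2 were higher, 15 were lower and 6 did not pass the threshold, with a median log2 fold change of −2.31, and 1 was higher without MM library 1, MM library 3 or fresh library 3. Igf1, the main endocrine product of growth hormone action on liver, was at 1393, 629 and 1271 CPM in fresh hepatocytes and 10.2, 17.6 and 11.5 CPM in MM HepOrgs, at −6.38 (SE 0.74, edgeR adjusted p = 2.41e-05). The receptor Ghr was at 1217, 968 and 1187 CPM and 248, 215 and 96.7 CPM, at −2.59 (SE 0.52, edgeR adjusted p = 0.0015), and the MM libraries were the lower ones without overlap for both genes. Igfals, which stabilizes circulating IGF1, differed by −4.61 (SE 0.35, edgeR adjusted p = 7.72e-07). Igfbp1, an IGF-binding protein that insulin represses, was a member that rose (3.30 (SE 0.52, edgeR adjusted p = 0.000296)). Of 17 clock genes, 1 was higher, 8 were lower and 8 did not pass the threshold, with a median of −1.19, and the numbers depended on single libraries. Without fresh library 1, 4 clock genes were higher and 3 lower, without fresh library 2, 3 were higher, without MM library 2 or fresh library 3 none was higher, and without MM library 1 or 2, 5 were lower. The labels give no hour of collection. Of 19 genes of iron handling and metallothioneins, 2 were higher, 3 were lower and 14 did not pass the threshold, with a median of −0.23. The shares higher and lower, 10.5% and 15.8%, were below the 19.7% and 20.0% over all tested genes. Without library 1 of the fresh hepatocytes 4 were higher. Slc40a1, the iron exporter ferroportin, differed by −2.59 (SE 0.49, edgeR adjusted p = 0.00105). Of 4 Y-linked genes tested, 1 was lower, with a median of −0.39, none was lower without MM library 1 or 2 or fresh library 1 or 3, and all 4 were present in every library of both groups. The Y-linked share lower, 25.0%, was near the 20.0% over all tested genes.

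In the NRF2, ATF4 and p53 lists more members rose than fell. Of 21 NRF2 targets, genes of the antioxidant response, 11 were higher, none was lower and 10 did not pass the threshold, with a median log2 fold change of 1.58, and 1 was lower without library 3 of the MM HepOrgs. Nqo1, a quinone reductase, was at 3.57, 4.94 and 2.35 CPM in fresh hepatocytes and 23.8, 28.4 and 53.4 CPM in MM HepOrgs, at 3.29 (SE 0.46, edgeR adjusted p = 0.000116). Slc7a11, shared by the NRF2 and ATF4 lists, was at 0.0959, 0 and 0.0276 CPM and 36.0, 31.3 and 170.4 CPM, and its log2 fold change was 9.40 without library 3 of the MM HepOrgs and 12.06 without library 1 of the fresh hepatocytes. The MM libraries were the higher ones for both. Gclm, a subunit of the glutathione-making ligase, did not pass the threshold (−0.17 (SE 0.33, edgeR adjusted p = 0.716)).

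Of 32 genes of ATF4 and the unfolded protein response, 17 were higher, 2 were lower and 13 did not pass the threshold, with a median of 1.21, and 1 was lower without MM library 1, MM library 2 or fresh library 1 and none without MM library 3. Psat1 of serine synthesis was at 1.61, 0.902 and 0.193 CPM in fresh hepatocytes and 122, 125 and 166 CPM in MM HepOrgs, at 7.24 (SE 0.57, edgeR adjusted p = 1.11e-06), and 8.08 without library 1 of the fresh hepatocytes. Chac1, which degrades glutathione, rose from 12.2, 1.26 and 4.78 CPM to 135, 146 and 95.5 CPM, at 4.36 (SE 0.64, edgeR adjusted p = 0.000161), and 5.39 without library 1 of the fresh hepatocytes. Nupr1, a stress-induced chromatin protein, rose by 6.56 (SE 0.59, edgeR adjusted p = 3.28e-06), or 7.15 without library 2 of the fresh hepatocytes, and Trib3, a pseudokinase induced by ATF4, by 3.68 (SE 0.65, edgeR adjusted p = 0.00068). None of the fresh libraries reached the MM range for Psat1 and Chac1. Hspa5, the chaperone BiP and a target of the other branches, did not pass the threshold (0.52 (SE 0.25, edgeR adjusted p = 0.121)), though it did without library 2 of the fresh hepatocytes (0.78, adjusted p = 0.0316).

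ATF4 binds a composite C/EBP-ATF element, and its letters TGATGNAA on either strand were found within 250 bases before the start of 8 of 30 genes of the list, 26.7%, and of 3.91% of 27025 genes. Of these 8 genes, 6 were higher and 2 were lower, the latter being Atf3 and Herpud1, a protein of endoplasmic reticulum-associated degradation (−1.10 (SE 0.36, edgeR adjusted p = 0.0267)), whose call was lost without MM library 3 (−0.84, adjusted p = 0.115) or fresh library 1 (−0.74, adjusted p = 0.144). The windows of Chac1, Nupr1, Fgf21 and Slc7a11, genes that rose, and of Atf3, a stress-induced transcription factor, are shown with the motif in capitals (RefSeq, GRCm38.p6), and the Slc7a11 window holds 2 matches. Atf3 was at 219.9, 5.18 and 6.66 CPM in fresh hepatocytes and 6.96, 15.0 and 9.80 CPM in MM HepOrgs, at −2.87 (SE 1.06, edgeR adjusted p = 0.046). The fresh libraries differed widely for Atf3, and without library 1 of that group its log2 fold change was 0.87 (adjusted p = 0.167). The call was also lost without MM library 1 (−2.64, adjusted p = 0.128), 2 (−3.20, adjusted p = 0.0791) or 3 (−2.80, adjusted p = 0.117). Fgf21, a hormone of starvation and amino acid stress, had a log2 fold change of 3.58 (SE 0.72, edgeR adjusted p = 0.00159), and 4.76 without library 1 of the fresh hepatocytes.
Chac1 (chr2:119351023-119351082, plus strand): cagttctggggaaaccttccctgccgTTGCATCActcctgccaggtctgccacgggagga
Nupr1 (chr7:126625547-126625606, minus strand): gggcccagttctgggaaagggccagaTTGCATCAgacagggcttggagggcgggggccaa
Fgf21 (chr7:45615596-45615655, minus strand): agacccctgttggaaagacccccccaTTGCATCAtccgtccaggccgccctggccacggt
Slc7a11 (chr3:50443627-50443705, minus strand): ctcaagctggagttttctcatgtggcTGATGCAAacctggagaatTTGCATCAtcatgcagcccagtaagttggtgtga
Atf3 (chr1:191183410-191183469, minus strand): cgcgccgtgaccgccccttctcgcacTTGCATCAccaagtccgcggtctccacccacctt

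Of 22 p53 targets and cell cycle inhibitors, 15 were higher, 1 was lower and 6 did not pass the threshold, with a median of 1.45. Cdkn1a, the inhibitor p21, was at 0.983, 4.59 and 4.56 CPM in fresh hepatocytes and 166, 165 and 216 CPM in MM HepOrgs, at 5.76 (SE 0.49, edgeR adjusted p = 1.96e-06). Cdkn2b, the inhibitor p15, rose from 0.551, 0.275 and 0.221 CPM to 22.2, 29.4 and 52.2 CPM, at 6.58 (SE 0.54, edgeR adjusted p = 1.38e-06), or 7.17 without library 1 of the fresh hepatocytes. Mdm2, which restrains p53, rose from 27.8, 31.4 and 30.2 CPM to 70.1, 63.6 and 87.7 CPM, at 1.31 (SE 0.16, edgeR adjusted p = 4.20e-05). The 3 MM libraries lay above all fresh libraries for each of these genes. Of 46 cell cycle genes, 2 were higher, 9 were lower and 35 did not pass the threshold, with a median of −0.47. The share lower, 19.6%, was near the 20.0% over all tested genes, and the share higher, 4.35%, was below the 19.7%. The number lower was 4 without library 2 or without library 3 of the MM HepOrgs. The number higher was 6 without fresh library 2, 4 without fresh library 1 or MM library 2, and 1 without MM library 1, MM library 3 or fresh library 3. Mki67, a marker of dividing cells, was at 0.359, 1.29 and 0.691 CPM in fresh hepatocytes and 1.25, 0.375 and 0.173 CPM in MM HepOrgs and did not pass the threshold (−0.36 (SE 0.89, edgeR adjusted p = 0.775)).

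Genes of acute stress, which isolation by collagenase is known to induce, depended on library 1 of the fresh hepatocytes. Of 35 tested, 8 were higher, 13 were lower and 14 did not pass the threshold, with a median of −0.72, and without that library 13 were higher and 8 lower. Fos, an immediate early transcription factor, was at 733, 66.8 and 83.8 CPM in fresh hepatocytes and 25.0, 36.3 and 8.46 CPM in MM HepOrgs. Its log2 fold change of −3.66 (SE 1.13, edgeR adjusted p = 0.0201) became −1.67 (adjusted p = 0.194) without that library, and it was −3.71 (adjusted p = 0.0569) without MM library 1 and −3.25 (adjusted p = 0.0731) without MM library 3, with the call lost each time. Klf6, a zinc finger factor of injury responses, rose by 2.59 (SE 0.28, edgeR adjusted p = 1.39e-05), and Ier3, an early response survival gene, by 6.43 (SE 0.39, edgeR adjusted p = 1.79e-07).

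In a list of foetal liver and progenitor genes, nearly all tested members were higher in MM HepOrgs. The list was chosen with earlier results of these data known. It holds Cdh17 and Ly6d, named above for large increases, so its count cannot serve as a test of a foetal programme. Of 21 foetal liver and progenitor genes tested, 20 were higher, none was lower and 1 did not pass the threshold, with a median log2 fold change of 4.45. Cd63, a tetraspanin of late endosomes, was at 0.935, 3.38 and 3.04 CPM in fresh hepatocytes and 495, 517 and 620.3 CPM in MM HepOrgs, at 7.81 (SE 0.46, edgeR adjusted p = 1.42e-07). Cd24a, a surface protein of progenitor and bile duct cells, rose from 0.0240, 0.589 and 0.193 CPM to 33.2, 35.5 and 75.0 CPM, at 7.64 (SE 0.83, edgeR adjusted p = 1.43e-05), with 7.04 without library 1 and 8.83 without library 2 of the fresh hepatocytes. Cd9, another tetraspanin, rose from 52.1, 31.8 and 51.4 CPM to 193, 199 and 341 CPM, at 2.44 (SE 0.26, edgeR adjusted p = 1.26e-05). The MM libraries exceeded the fresh ones without overlap for all 3. Gpc3, a foetal liver proteoglycan, was at 0.0959, 0.942 and 0.304 CPM and 22.99, 20.04 and 75.04 CPM, at 6.56 (SE 0.82, edgeR adjusted p = 4.74e-05). It was 7.65 without library 2 of the fresh hepatocytes and 5.71 without library 3 of the MM HepOrgs. Afp was at 5.06, 4.08 and 5.47 CPM and 29.7, 25.2 and 144 CPM, at 3.76 (SE 0.95, edgeR adjusted p = 0.00655), and 2.52 without library 3 of the MM HepOrgs, its highest.

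The cholangiocyte markers rose in 9 of 12 tested, with none lower and a median of 4.54. Krt19, a keratin of bile ducts, was at 0, 0.746 and 0.387 CPM in fresh hepatocytes and 1.56, 0.918 and 13.9 CPM in MM HepOrgs, with library 3 well above the other MM libraries. Its log2 fold change was 3.94 (SE 1.30, edgeR adjusted p = 0.0272), and it lost the call without MM library 3 (1.82, adjusted p = 0.239), fresh library 1 (3.33, adjusted p = 0.0752) or fresh library 3 (4.05, adjusted p = 0.0727), and was 4.88 without fresh library 2. Sox9, a transcription factor of bile ducts and progenitors, was at 8.84, 20.6 and 6.79 CPM and 27.3, 32.8 and 18.4 CPM, and the groups overlapped. Its log2 fold change was 1.12 (SE 0.34, edgeR adjusted p = 0.0188), and it lost the call without MM library 2 (0.93, adjusted p = 0.0728), fresh library 1 (0.97, adjusted p = 0.0666) or fresh library 3 (0.86, adjusted p = 0.0611), and was 1.76 without fresh library 2. Bicc1, an RNA-binding protein of tubular epithelia, rose from 0.0959, 0.628 and 1.08 CPM to 19.4, 21.4 and 22.3 CPM, at 5.15 (SE 0.62, edgeR adjusted p = 3.24e-05), with 6.03 without fresh library 3. Cftr was at 0 in fresh hepatocytes and Sctr, the secretin receptor, at 0 in MM HepOrgs.

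Of 8 keratins, 5 were higher, none was lower and 3 did not pass the threshold, with a median of 3.67 (2.08 with genes at 0 counts in 1 group set at their bound), and the number higher was 3 without MM library 3, fresh library 1 or fresh library 3. Krt8, the keratin of simple epithelia, rose from 309.9, 477 and 333 CPM to 936, 1093 and 886 CPM, at 1.38 (SE 0.24, edgeR adjusted p = 0.00065). Of 16 claudins and gap junction genes, 7 were higher, 5 were lower and 4 did not pass the threshold, with a median of 1.76 (1.50 with bounds). Gjb1, the hepatocyte gap junction connexin 32, fell by 1.97 on the log2 scale, and Cldn7, a claudin of duct epithelia, rose by 5.78, with 7.36 without library 3 of the fresh hepatocytes and 5.17 without library 3 of the MM HepOrgs. Of 32 apical polarity and canalicular genes, 10 were higher, 8 were lower and 14 did not pass the threshold, with a median of 0.33. The shares higher and lower in that list were 31.2% and 25.0%, against 19.7% and 20.0% over all tested genes. Dpp4, a peptidase of the canalicular membrane, differed by −3.05 (SE 0.38, edgeR adjusted p = 4.24e-05), and Msn, the cytoskeletal linker moesin, by 3.64 (SE 0.50, edgeR adjusted p = 0.000102), or 4.24 without library 2 of the fresh hepatocytes.

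Of 16 annexins and S100 genes, 9 were higher, 1 was lower and 6 did not pass the threshold, with a median of 1.39. Anxa2, a calcium-dependent membrane protein, was at 1.63, 9.22 and 7.62 CPM in fresh hepatocytes and 549.9, 639.7 and 704 CPM in MM HepOrgs, at 6.69 (SE 0.54, edgeR adjusted p = 1.24e-06). Of 15 integrins, 6 were higher, 3 were lower and 6 did not pass the threshold, with a median of 0.64, and Itga6, a laminin receptor, rose by 5.55 (SE 0.29, edgeR adjusted p = 7.91e-08). Of 42 laminin and matrix genes, 18 were higher, 3 were lower and 21 did not pass the threshold, with a median of 1.40. Fibronectin, Fn1, rose by 0.98 (SE 0.24, edgeR adjusted p = 0.00543). The MM libraries lay above the fresh ones without overlap for Anxa2.

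Of 21 YAP targets, genes induced by spreading and stiffness, 9 were higher, 3 were lower and 9 did not pass the threshold, with a median of 0.84. Ajuba, a LIM protein of cell junctions, rose by 2.70 (SE 0.52, edgeR adjusted p = 0.00118), or 3.77 without library 2 of the fresh hepatocytes, and Dlc1, a tumour suppressor, fell by 3.82 on the log2 scale. Of 12 Notch genes, 4 were higher, 2 were lower and 6 did not pass the threshold, with a median of 0.71, and without library 1 of the fresh hepatocytes 2 were higher and 1 lower. The Notch shares higher and lower were 33.3% and 16.7%, against 19.7% and 20.0% over all tested genes. The Notch ligand Jag1 rose by 2.09 (SE 0.53, edgeR adjusted p = 0.00701). Of 22 TGF-beta genes, 9 were higher, 6 were lower and 7 did not pass the threshold, with a median of 0.71. Ltbp3, which stores latent TGF-beta in the matrix, rose from 0.0719, 0.824 and 0.442 CPM to 33.0, 45.9 and 62.0 CPM, at 6.82 (SE 0.64, edgeR adjusted p = 4.31e-06), or 7.57 without library 2 of the fresh hepatocytes. Of 27 growth factor and cytokine receptors, 4 were higher, 10 were lower and 13 did not pass the threshold, with a median of −0.79. Egfr, the EGF receptor, fell from 935, 428 and 999.7 CPM to 398, 338 and 224 CPM, at −1.30 (SE 0.33, edgeR adjusted p = 0.00701), and Erbb2, its partner, rose by 3.68 (SE 0.58, edgeR adjusted p = 0.000276), or 4.50 without library 2 of the fresh hepatocytes.

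Of 17 chemokine ligands, 8 were higher, 2 were lower and 7 did not pass the threshold, with a median of 2.01 (1.02 with bounds), and 1 was lower without MM library 1. Cxcl14, a chemokine of epithelia, was at 0.168, 1.14 and 1.02 CPM in fresh hepatocytes and 94.0, 61.0 and 33.7 CPM in MM HepOrgs, at 6.39 (SE 0.86, edgeR adjusted p = 8.24e-05). Of 30 interferon and antigen presentation genes, 1 was higher, 5 were lower and 24 did not pass the threshold, with a median of −0.18. The shares higher and lower, 3.33% and 16.7%, were below the 19.7% and 20.0% over all tested genes. Without library 2 of the fresh hepatocytes 5 were higher and 3 lower, while 2 were higher without library 3 of the MM HepOrgs. Cd74, the invariant chain of MHC class II in antigen-presenting cells, was among those that fell (−5.14 (SE 0.94, edgeR adjusted p = 0.000863)), with −3.98 without library 2 of the fresh hepatocytes and −6.93 without library 3 of the MM HepOrgs. Its levels were 8.48, 83.1 and 27.6 CPM in fresh hepatocytes and 0.432, 0.208 and 2.75 CPM in MM HepOrgs, highest within each group in the library with the highest macrophage and endothelial sums. Of the endothelial markers, 17 of 18 tested were lower with a median of −6.11 (−5.49 with bounds). Clec4g, Egfl7, Wnt2 and Ptprb had no count in MM HepOrgs, so lower was the only direction their counts allowed. The same held for Clec4f and Timd4 among the macrophage markers. Of 16 macrophage markers, 1 was higher, 5 were lower and 10 did not pass the threshold, with a median of −1.87, and without library 3 of the MM HepOrgs none was higher and 13 were lower, and none was higher without fresh library 1 or 3. Of 15 mesenchyme markers, 2 were higher, 3 were lower and 10 did not pass the threshold, with a median of −0.73. The shares higher and lower were 13.3% and 20.0%, against 19.7% and 20.0% over all tested genes. A single mesenchyme marker was higher without MM library 3 or fresh library 1 or 3. Of the 10 hepatocyte markers, 1 was higher, 7 were lower and 2 did not pass the threshold, with a median of −1.36, and none was higher without MM library 1 and 2 were higher without fresh library 1. Hba-a1, a haemoglobin chain and the only red cell gene tested, was lower in MM HepOrgs. Red cell markers summed to 0.551, 61.5 and 2.54 CPM in fresh hepatocytes and 0.024, 0 and 0 CPM in MM HepOrgs. Hba-a1 could pass the filter on low counts only through the fresh libraries, so its direction was fixed by that filter.

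The part of the medium was examined by setting MM HepOrgs against HM-Wnt HepOrgs at 2 weeks, a comparison that shares the MM libraries with the one above. At an adjusted p below 0.05, 740 genes were higher and 443 lower in MM, 5.52% and 3.3% of those tested (8.83% in both directions), and with the replicate number as a block 1005 were higher and 703 lower. The total of 1183 became 474 without MM library 1, 445 without MM library 2, 459 without HM-Wnt library 1 and 495 without HM-Wnt library 3. Of 33 genes of fatty acid oxidation and ketogenesis, 21 were higher in MM and none lower, with a median log2 fold change of 1.38 against −0.03 over all genes. Of 9 liver forms of glycolysis and fructose use, 7 were higher and none lower, with a median of 2.18. Fbp1 was at 377, 409 and 201 CPM in HM-Wnt HepOrgs, below every MM and fresh library, at 2.02 (SE 0.27, edgeR adjusted p = 0.00116). Hpx was at 5928, 5016 and 2120.1 CPM in HM-Wnt HepOrgs, at 2.46 (SE 0.57, edgeR adjusted p = 0.0191), and the call was lost without MM library 1 (2.10, adjusted p = 0.0766), MM library 2 (2.41, adjusted p = 0.0587) or HM-Wnt library 3 (2.15, adjusted p = 0.0752). Cd36 was at 7.35, 3.02 and 5.46 CPM in HM-Wnt HepOrgs, at 5.69 (SE 0.73, edgeR adjusted p = 0.000976), and fresh libraries lay nearer to HM-Wnt than to MM for this gene. Saa1 was at 91.3, 59.1 and 23.4 CPM in HM-Wnt HepOrgs, at 5.55 (SE 1.10, edgeR adjusted p = 0.00909).

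**Figure D5:**
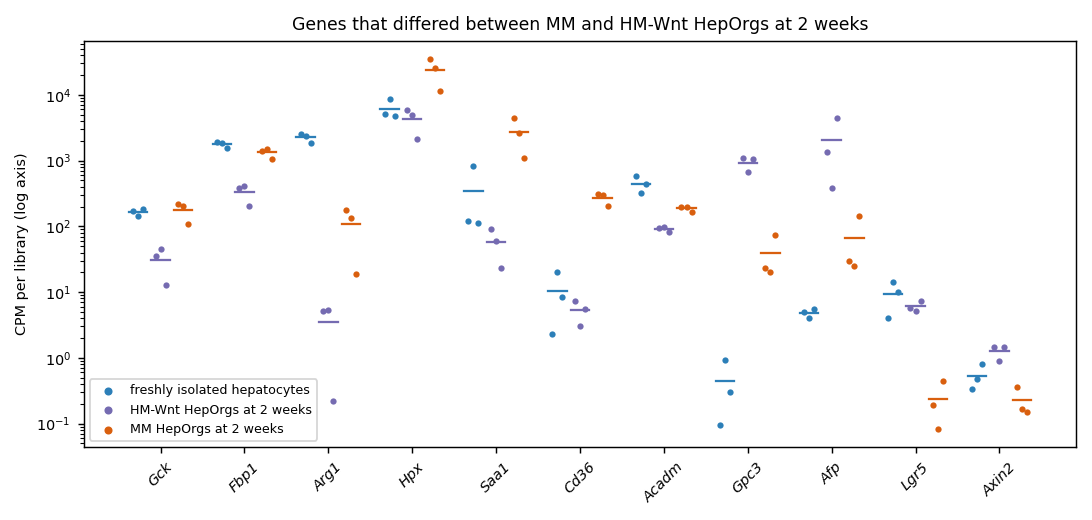
TMM-scaled CPM (log axis) of 11 genes in the 3 libraries each of fresh hepatocytes, HM-Wnt HepOrgs and MM HepOrgs at 2 weeks, with bars at the group means. Fbp1 lies nearer to the fresh libraries in MM than in HM-Wnt, and Gpc3, Afp and Axin2 have their highest group mean in HM-Wnt.

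Some Wnt targets and foetal genes were lower in MM than in HM-Wnt, and most members of both lists did not pass the threshold. Of 21 foetal liver and progenitor genes, none was higher and 3 were lower, namely Gpc3, Afp and Cdh17, with a median of −0.28. Of 18 Wnt targets, none was higher and 6 were lower, and the number lower was 1 without MM library 2, 2 without HM-Wnt library 1 and 1 without HM-Wnt library 3. Lgr5 was at 5.68, 5.11 and 7.39 CPM in HM-Wnt HepOrgs, within the fresh range, and the log2 fold change in MM was −4.67 (SE 0.64, edgeR adjusted p = 0.00122), or −5.43 without MM library 3. Axin2 was at 1.49, 0.903 and 1.46 CPM in HM-Wnt HepOrgs, above all MM libraries, at −2.50 (SE 0.58, edgeR adjusted p = 0.0195), and lost the call without MM library 2 (−2.32, adjusted p = 0.0894), MM library 3 (−2.26, adjusted p = 0.0533), HM-Wnt library 1 (−2.38, adjusted p = 0.0672) or HM-Wnt library 3 (−2.38, adjusted p = 0.0635). Gpc3 was at 1085, 666 and 1049 CPM in HM-Wnt HepOrgs, with every library above every MM library, at −4.57 (SE 0.71, edgeR adjusted p = 0.00257), or −5.42 without MM library 3. Afp was at 1362, 389 and 4366 CPM there, at −4.95 (SE 0.99, edgeR adjusted p = 0.00993), with −6.18 without MM library 3 and −3.70 without HM-Wnt library 3. Of 28 periportal genes tested, 10 were higher in MM than in HM-Wnt and none was lower, with a median of 0.91. Of 30 pericentral genes, 2 were higher and 10 lower, with a median of −0.72. Over all tested genes 5.52% were higher and 3.3% lower. The pericentral list shares Axin2 and Lgr5 with the Wnt targets. These counts come from calls whose total fell without some single libraries. Otc had no count in HM-Wnt HepOrgs and 27 counts over the 3 MM libraries, and Cps1 and Gls2 did not pass the threshold between the media (−0.92 (SE 0.67, edgeR adjusted p = 0.428) and −1.25 (SE 0.47, edgeR adjusted p = 0.113)). Arg1 was at 5.08, 5.35 and 0.223 CPM in HM-Wnt HepOrgs, at 4.95 (SE 1.39, edgeR adjusted p = 0.043), and the call was lost in 5 of the 6 fits that left out 1 library of either group, with values between 4.41 and 5.39 and adjusted p-values between 0.0889 and 0.119.

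Few genes passed the threshold between the weeks in MM with edgeR, and more did with DESeq2. Between MM HepOrgs at 2 weeks and at 1 week, 1 of 13405 genes passed the threshold in edgeR (0.00746%), while 1201 had an unadjusted p below 0.05 and DESeq2 called 131 higher and 65 lower. In edgeR none passed without MM library 1 or 2 of the second week or library 2 of the first week, and 10 passed without library 3 of the first week. The gene was Aspg, an asparaginase, at 9.35, 9.54 and 9.82 CPM after 1 week, 35.5, 30.1 and 23.7 CPM after 2 weeks and 197, 152 and 139 CPM in fresh hepatocytes. Its level after 2 weeks lay above every library of the first week and below every fresh library.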

How the data were processed

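RNA was isolated from passage 2 HepOrgs and from freshly isolated hepatocytes, and amplified by a SMARTseq2 protocol from poly(A) RNA. Per the labels and the methods of the study, the authors aligned reads with STAR to GRCm39 and counted them per gene with featureCounts. The deposited table holds raw counts and TPM for 37 libraries, of which 27 could be mapped to a condition and 10 were not used. The gene lengths behind the deposited TPM lie within 5% of the whole gene span for 80.8% of genes, so levels are given as CPM from the counts.

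Totals ranged from 30289364 to 58815016 counts over the libraries fitted. The main test was the quasi-likelihood test of edgeR 4.0.16 (R 4.3.3) with TMM scaling and filterByExpr (minimum count 10, minimum total 15) in 1 fit of 15 HepOrg and hepatocyte libraries in 5 groups of 3. Adjusted p-values are Benjamini-Hochberg values over all 13405 genes tested, two-sided, with a threshold of 0.05. Alternatives were RLE factors, DESeq2 1.42.0, other filters, limma 3.58.1 on log2(TPM + 1) and log2(TPM + 0.1), other sets of libraries, a fold limit, a replicate block and leaving out each library. Data were simulated for the comparison with fresh hepatocytes (13231 genes). In them edgeR recovered 23% of genes changed by 1 and 85% of those changed by 2 on the log2 scale, with 9 false calls. Few genes were changed there, far fewer than passed the threshold in the data, so these shares need not hold for the data. At-least folds use a floor of 3 counts in each library of the group without counts, and counting intervals cover counting error only.

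Samples with the same number in MM and HM-Wnt HepOrgs deviated together (correlations 0.185, 0.32 and 0.475), so blocked values stand beside that comparison where they changed it. For MM library 1 the pairing was not clear, since it correlated at 0.193 with HM-Wnt library 2. Named genes were list members past the threshold with large changes, high counts or a defining role, the 12 highest and 12 lowest changes among genes whose average log2 CPM reached 5 and whose libraries did not overlap, 10 genes of the highest count share in each group, and genes the study names. Lists of hepatocyte functions, zones, signalling pathways, stress responses and cell type markers, 54 in all, were described by their counts and medians. The members and lists were chosen with earlier results of these data known. Nuclear retained RNAs and Xist were not analysed here, and some genes that the rule names are not reported here.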

Additional observations from a re-analysis of the deposited data

Results flagged for a closer look

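The difference from fresh hepatocytes was not the same in the 2 media. For 1183 genes it differed between MM and HM-Wnt HepOrgs at 2 weeks by the edgeR test of the difference itself, in which the fresh libraries cancel. The total ranged from 445 to 1195 when 1 library was left out.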

How the results depend on the processing

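Against fresh hepatocytes, 5321 genes passed the threshold, and the total ranged from 4471 to 5368 when 1 library was left out. It fell to 1890 (1106 higher, 784 lower) with all 27 libraries in 1 fit. Limma gave 899 lower on log2(TPM + 1), and 4088 higher and 875 lower on log2(TPM + 0.1). The replicate block gave 5653 genes, and since same-numbered MM and fresh libraries correlated at 0.239, −0.102 and 0.064, the numbers were not read as pairs. DESeq2 called 5928 genes and held 99.2% of the calls with the same direction. Of 133 named genes past the threshold, none lost the call under RLE factors, without a filter, among the 132 to which DESeq2 gave an adjusted p or among the 95 that kept at least 10 counts in every library, and 1, Atf3, did under the block. On log2(TPM + 1) 15 of 129 and on log2(TPM + 0.1) 9 of 129 lost it, as did 3 in a fit of the 2 groups alone, 4 under the fold limit and 40 with all 27 libraries. Values below the threshold that changed sign on log2(TPM + 1) and log2(TPM + 0.1) were Fbp1 (0.093 and 0.093) and Gclm (0.345 and 0.35). Atf3 lay between −3.411 and 0.87, Glul between −0.138 and 0.507 and Mki67 between −1.457 and 0.215 when 1 library was left out (Glul −0.082 and Mki67 0.097 without MM library 3), and Mki67 was 0.011 on log2(TPM + 1).

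Between MM and HM-Wnt, DESeq2 called 2136 genes (1217 higher, 919 lower), a fit of the 2 groups alone 1848 (761 lower) and all 27 libraries 7 (6 higher, 1 lower). On log2(TPM + 1) 376 were higher and 1055 lower, on log2(TPM + 0.1) 380 and 849. The fold limit left 287 lower, and the replicate block gave 703 lower. Leaving out 1 library gave totals of 445 to 1195, with 312 to 799 higher and 114 to 396 lower. Between weeks 2 and 1 in MM, DESeq2 called 196, limma 3 on log2(TPM + 1) and 0 on log2(TPM + 0.1), a fit of the 2 groups 15, all 27 libraries 0, and leaving out 1 library 0 to 10. The causes were not tested. In data simulated only for the comparison with fresh hepatocytes, edgeR recovered 23% of log2 changes of 1. Few genes were changed there, so this share does not measure the recovery in the comparisons made here. A change of that size that was not called may still be present.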
